A study of Danio rerio with 36 samples.

Results

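Zebrafish larvae raised without microbes, called axenic, were set against larvae raised with their ordinary microbes, called conventional, in the second of 2 experiments on larval heads. The comparison took all 4 axenic and all 7 conventional libraries of polyA RNA from experiment 2, 11 of the 36 samples in the series, and every gene in the count table of that experiment. The libraries were chosen by their labels and not by any measured value. Every group came from a mixed wild-type line and was collected at 10 days after fertilization, each library from a pool of heads cut in front of the swim bladder. The axenic larvae were microbe free, the conventional larvae were the colonized controls, and a further 7 re-colonized libraries of experiment 2 came from larvae that were made axenic and given microbes on day 1, as a control for that procedure. The study asked which molecular changes accompany the raised activity of axenic larvae. The size of the pools, and whether they came from separate clutches or tanks, are not given in the labels, so the p-values measure only the spread between these pools.

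The microbes of a fish gut feed the innate immune system with signals that keep macrophages, neutrophils and epithelia in a state of readiness, and they also change how the larva takes up and stores fat. Larvae at this age live on what they eat, build cartilage and bone in the head, and still form neurons and retinal cells. Heads hold brain, eye, skin, muscle, skeleton and gill together, so a change in a gene can come from any of them, and in pooled tissue fewer cells of a type and less RNA per cell cannot be told apart.

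The axenic libraries, numbered 1, 3, 4 and 7 in the labels, held 16059463 to 24856672 estimated counts, and the conventional libraries, numbered 1 to 7, held 15148068 to 25760598. Values are given below as CPM, that is counts set to a common library size after TMM scaling. Markers of neurons summed to 6423 to 9375 CPM in axenic and 5188 to 7052 CPM in conventional libraries, and those of photoreceptors to 13330 to 17510 and 9414 to 13820 CPM. Digestive enzymes of the exocrine pancreas, an organ that lies behind the head, summed to 6793 to 18910 CPM in axenic and 2751 to 30380 CPM in conventional libraries. Axenic 7 stood apart from axenic 1, 3 and 4, with a scaling factor of 1.208 against 0.928 to 0.990 and a ribosomal protein sum of 41270 CPM against 76540 to 82970 CPM. Conventional 1 and 5 stood apart from the other conventional libraries, with scaling factors of 1.126 and 1.122 against 0.769 to 0.822. On the first principal component, which carried 26.4% of the variance of the 11 libraries, conventional 1 and 5 lay at -34.3 and -16.3 beside the axenic libraries at -80.6 to -31.0, and the other conventional libraries lay at 31.3 to 59.4. The library names end in a number whose meaning the labels do not give. It was distinct in all 11 axenic and re-colonized libraries, while 4 of the 7 conventional libraries repeated a number used among those 11, so a difference in handling that such numbers mark cannot be told apart from the groups.

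Axenic heads differed from conventional heads in 1237 of 20169 genes tested (6.13%), of which 804 were higher (3.99%) and 433 were lower (2.15%) in axenic heads, by edgeR's quasi-likelihood test at a Benjamini-Hochberg adjusted p below 0.05. The change was more than 2-fold for 592 of the higher and 280 of the lower genes. All 4 axenic libraries lay above all 7 conventional libraries in 669 genes (3.32%) and below them in 394 genes (1.95%), together 1063 genes (5.27%), and 744 of the 1237 called genes were free of overlap in this way. DESeq2 called 1903 genes, 973 higher and 930 lower, so the surplus of higher genes was smaller with that tool. The calls rested heavily on a single library: without axenic 7 edgeR called 391 of 20433 genes (1.91%), 223 higher and 168 lower, and 382 of these were among the 1237, all in the same direction. Without conventional 3 it called 821 genes, 494 of them higher, and without conventional 4 it called 531 higher. Leaving out axenic 3 left 246 lower genes, while leaving out conventional 1 raised the lower genes to 715. Counts for gene lists with called genes are therefore given with and without axenic 7, and each count is to be read against the percentages above.

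**Figure D1:**
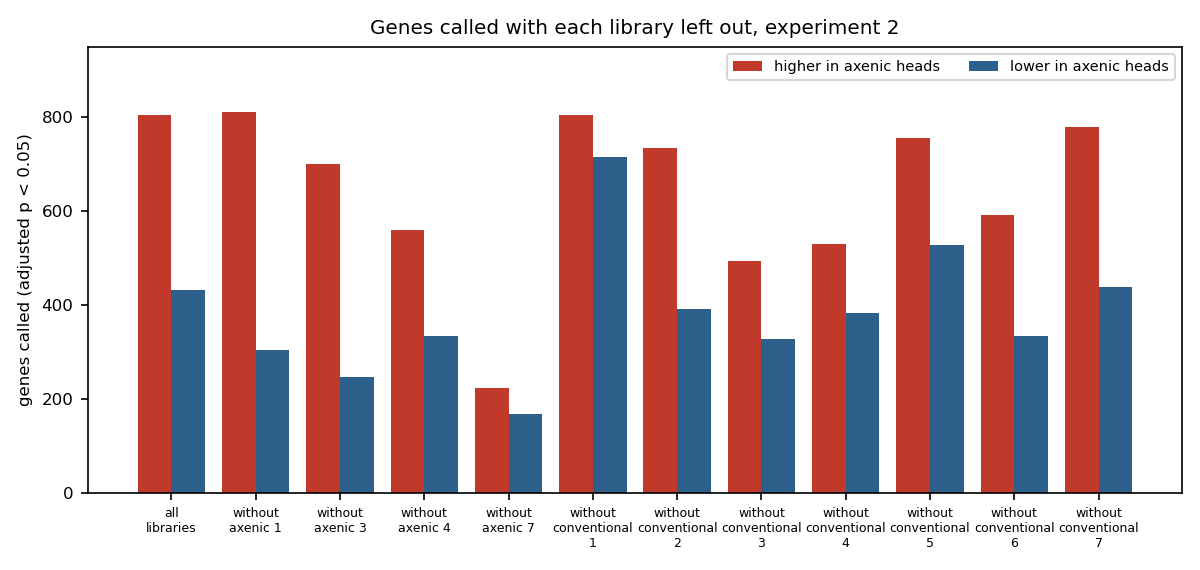
Genes called by edgeR at an adjusted p below 0.05 (vertical axis, number of genes) with all libraries and with each axenic or conventional library left out in turn, as bars for genes higher and lower in axenic heads. Leaving out axenic 7 gives the shortest bars, 223 higher and 168 lower, and leaving out conventional 1 gives the most lower genes, 715.

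Connective tissue genes were higher in axenic heads. Of 62 tested genes of extracellular matrix and fibroblasts, 36 were higher and 0 were lower in axenic heads, with a median log2 fold change of 1.16 beside 0.04 over all genes tested. Without axenic 7 the count was 16 and the median 1.01, against -0.015 over all genes. The summed level of the list was 14760 to 20110 CPM in axenic and 3621 to 9493 CPM in conventional libraries, with no overlap. The gene col6a3 (chromosome 9, 23914317 to 23994226, minus strand, GRCz11), which encodes a chain of the microfibrillar collagen VI, was at 114, 91.3, 129 and 247 CPM in axenic 1, 3, 4 and 7, against 9.26 to 25.9 CPM with a median of 13.2 CPM in the conventional libraries. Every axenic library exceeded every conventional one, axenic 7 by the widest margin, and the log2 fold change was 3.11 ± 0.34 (SE, n = 4 and 7, adjusted p = 2.25e-05, edgeR). The collagen VI chain genes col6a1 and col6a2 both lie on chromosome 11 and rose by 2.1 ± 0.24 and 2.22 ± 0.26 on the log2 scale (adjusted p = 2.25e-05 and 2.58e-05, edgeR). The gene postnb, for periostin, a matrix protein of periosteum and tendon, was at 30.6, 29.8, 70.9 and 143 CPM in axenic libraries and 2.60 to 14.2 CPM (median 6.91) in conventional ones. Here axenic 4 and 7 stood above axenic 1 and 3, all above the conventional range, with a log2 fold change of 3.23 ± 0.43, or 2.53 without axenic 7. Lumican (lum), a small proteoglycan that spaces collagen fibrils, rose by 2.52 ± 0.29, and col12a1b, for a collagen that coats those fibrils, rose by 2.23 ± 0.26. For cthrc1b, a secreted protein of matrix remodelling, the log2 fold change was 3.75 ± 0.74 (adjusted p = 0.00331, edgeR), but its libraries overlapped and without axenic 7 it was 3.07 with an adjusted p of 0.0519.

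Cartilage and bone genes were mostly higher too, in a list that shares the collagen I genes, col1a1b among them, with the matrix list. Among 53 tested members, 25 were higher and 1 was lower, with a median log2 fold change of 1.32, and without axenic 7 the counts were 12 and 1, the lower gene then being spp1 in place of acp5a, and the median 1.00. The list summed to 20190 to 29570 CPM in axenic libraries and 3617 to 11280 CPM in conventional libraries. The gene col2a1a (chromosome 8, 21195420 to 21219474, plus strand), for the main fibrillar collagen of cartilage, was at 5743, 5496, 6414 and 9273 CPM in axenic libraries, against 699 to 2323 CPM (median 1060) in conventional libraries. It was among the 5 most abundant of the named genes that rose, and its log2 fold change was 2.32 ± 0.41 (adjusted p = 0.00113, edgeR). The gene col10a1a, for the collagen X laid down by maturing chondrocytes and fish osteoblasts, was at 521, 518, 340 and 540 CPM in axenic libraries, against 26.6 to 133 CPM (median 43.6) in conventional ones. The axenic values lay close together except for the lower axenic 4, and the log2 fold change was 3.17 ± 0.49. The cartilage collagen gene col11a2 rose by 2.99 ± 0.48 and hapln1a, for the link protein that ties proteoglycan to hyaluronan, by 2.73 ± 0.31.

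Members of the same list that act in bone and enamel were among those that rose. The gene enam (chromosome 1, 43901966 to 43905264, minus strand), for the enamel matrix protein enamelin, was at 53.6, 53.9, 45.6 and 47.12 CPM in axenic libraries, against 1.80 to 11.2 CPM (median 5.41) in conventional libraries. All 4 axenic values fell within a narrow band above the conventional range, and the log2 fold change was 2.85 ± 0.48 (adjusted p = 0.000843, edgeR). The osteoblast membrane protein gene ifitm5 rose by 3.06 ± 0.41, and panx3, for a channel protein of chondrocytes and osteoblasts, rose by 2.90 ± 0.40. The fibrillar collagen I gene col1a1b, at 4505 to 5911 CPM in axenic and 853 to 2953 CPM in conventional libraries, had a log2 fold change of 1.44 ± 0.39 (adjusted p = 0.0265, edgeR). Its adjusted p was 0.108 without axenic 7, and it also missed the threshold on leaving out axenic 4 or conventional 1, 3 or 4. The lower member was acp5a, for the acid phosphatase of osteoclasts and macrophages, with a log2 fold change of -1.79 ± 0.51 in overlapping libraries (adjusted p = 0.0374, edgeR, and 0.126 without axenic 7). It also missed the threshold without axenic 1 or 4 or conventional 2, 6 or 7.

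**Figure D2:**
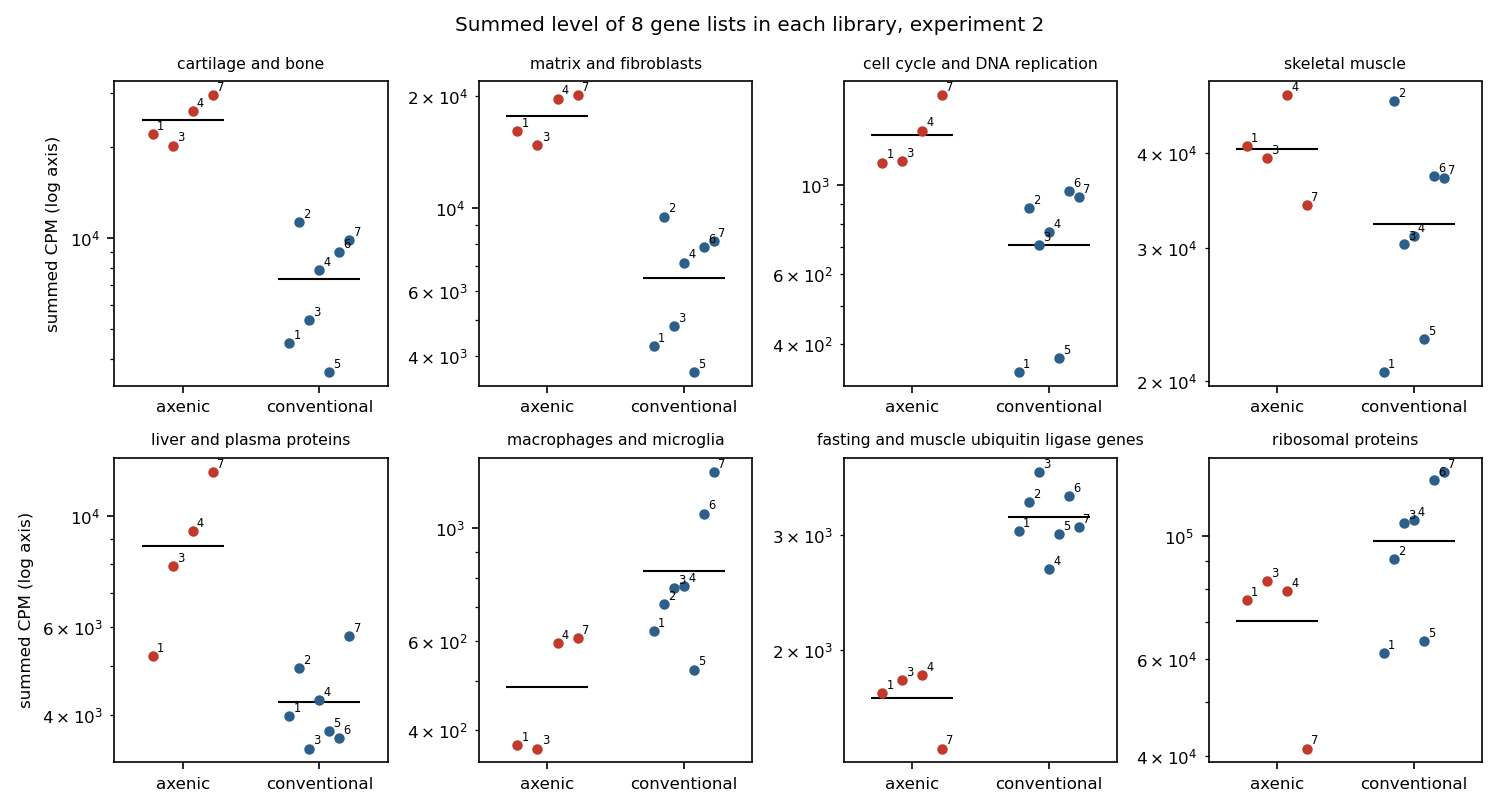
Summed CPM (vertical log axes) of 8 gene lists in each axenic (left) and conventional (right) library, with the library number beside each point and the group mean as a line. Cartilage and bone, matrix, and cell cycle sums of axenic libraries all lie above those of conventional libraries, and axenic 7 has the lowest ribosomal protein sum, 41270 CPM.

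Genes of cell division were higher in axenic heads. Of 47 tested genes of the cell cycle and DNA replication 29 rose and 0 fell, with a median log2 fold change of 1.66, and without axenic 7 the count was 17 and the median 1.46. The list summed to 1140 to 1680 CPM in axenic and 340.9 to 968.9 CPM in conventional libraries, where conventional 1 and 5 were the lowest. The gene mki67 (chromosome 12, 10366617 to 10381283, minus strand), for the chromosome-coating protein Ki-67 of dividing cells, was at 27.1, 26.3, 54.1 and 93.2 CPM in axenic libraries, against 6.55 to 10.4 CPM (median 7.12) in conventional ones. All axenic libraries were above that range, axenic 7 the most, and the log2 fold change was 2.65 ± 0.34 (adjusted p = 7.63e-05, edgeR). The replication genes moved in the same direction: mcm3, for a subunit of the replicative helicase, rose by 2.11 ± 0.29 and pola1, for the catalytic subunit of DNA polymerase alpha, by 1.47 ± 0.21. The gene uhrf1, whose protein recruits maintenance DNA methylation to replicated DNA, rose by 2.12 ± 0.33, or 1.51 without axenic 7, and the condensin subunit gene ncaph by 3.03 ± 0.50. Levels of ncaph were low, 1.92 to 6.0 CPM in axenic and 0.173 to 0.617 CPM in conventional libraries.

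Some sterol synthesis genes were higher in axenic heads, and a few genes of sterol efflux and regulation were lower. Of 37 tested genes of cholesterol synthesis and uptake 9 were higher, all of them synthesis enzymes, and 4 were lower (abca1a, abcg1, srebf1 and mylipa), with a median of 0.56. Without axenic 7 the counts were 4 and 2 (mylipa and srebf1). The sum of the list was lower in axenic libraries, 1690 to 1881 CPM, against 2191 to 2711 CPM in conventional libraries, without overlap. The gene hmgcra (chromosome 5, 50972485 to 50992776, minus strand), for the rate-limiting reductase of the mevalonate pathway, was at 24.3, 88.7, 41.0 and 150 CPM in axenic libraries, against 7.95 to 18.4 CPM (median 9.69) in conventional libraries. The axenic libraries were far apart, axenic 1 the lowest, yet none overlapped the conventional range, and the log2 fold change was 2.82 ± 0.35 (adjusted p = 4.71e-05, edgeR), or 2.21 without axenic 7. The same order of axenic libraries, 1 below 4 below 3 below 7, held for cyp51, the lanosterol demethylase gene, at 9.66, 16.2, 40.0 and 48.4 CPM in axenic 1, 4, 3 and 7, against 1.46 to 5.24 CPM in conventional libraries. Its log2 fold change was 2.93 ± 0.37, and that of hmgcs1, for the synthase that precedes the reductase, was 1.75 ± 0.24. The squalene epoxidase gene sqlea rose by 2.54 ± 0.47, or 1.82 without axenic 7, in libraries that overlapped.

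The genes that fell in this list act on sterol efflux, receptor turnover and lipid synthesis and are, in mammals, known targets of the liver X receptor, a sterol sensor. The gene mylipa, for the ubiquitin ligase that removes the LDL receptor, was at 51.8, 42.8, 57.8 and 40.6 CPM in axenic libraries, against 108 to 180 CPM (median 140) in conventional libraries. These ranges were well apart, and the log2 fold change was -1.57 ± 0.20 (adjusted p = 7.82e-05, edgeR). The regulator gene srebf1 fell by 1.25 ± 0.18 on the log2 scale. The cholesterol exporter gene abca1a, at 400 to 747 CPM in axenic and 995 to 1358 CPM in conventional libraries, fell by 0.94 ± 0.22, and its adjusted p was 0.0623 without axenic 7 (0.012 with it, edgeR). The phospholipid transfer protein gene pltp (chromosome 6, 55357188 to 55393310, plus strand), of the apolipoprotein list, was at 32.2, 37.9, 34.4 and 28.1 CPM in axenic libraries, against 79.9 to 117 CPM (median 107) in conventional libraries. It fell by 1.65 ± 0.19 (adjusted p = 2.58e-05, edgeR), with little spread within either group.

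Some genes that burn fat were higher and the carriers of fat in blood were mixed. Of 46 tested genes of fatty acid oxidation and ketones 14 rose and 2 fell, with a median of 0.56, and 7 rose and 0 fell without axenic 7. The gene cpt1ab (chromosome 25, 23591990 to 23645807, plus strand), for the enzyme that admits fatty acids to mitochondria, was at 18.1, 18.04, 30.5 and 34.5 CPM in axenic libraries, against 2.83 to 9.14 CPM (median 6.57) in conventional libraries. The groups did not overlap, and the log2 fold change was 2.09 ± 0.27 (adjusted p = 7.82e-05, edgeR). Both copies of the alpha subunit gene of the trifunctional enzyme of beta-oxidation, hadhab and hadhaa, rose by 1.58 ± 0.19 and 1.62 ± 0.23. The gene angptl4, for a secreted inhibitor of lipoprotein lipase that microbes are known to hold down in the intestine of mice and fish, was at 27.5, 25.4, 52.4 and 87.2 CPM in axenic libraries, against 3.65 to 18.8 CPM (median 8.26) in conventional ones. Conventional 7 was the highest of its group and still below every axenic library, and the log2 fold change was 2.49 ± 0.36. The sum of the whole oxidation list went the other way, 1772 to 2328 CPM in axenic and 2359 to 4584 CPM in conventional libraries, so the abundant members did not follow the median. Among 32 tested genes of fatty acid synthesis and desaturation 4 rose and 1 fell, and without axenic 7 none rose (0) and 1 fell. The desaturase gene fads2 had a log2 fold change of 2.38 ± 0.47 (adjusted p = 0.00294, edgeR), or 1.67 with an adjusted p of 0.0674 without axenic 7, and the gene that fell, lpin1, for a phosphatidate phosphatase, fell by 1.42 ± 0.21 with and by 1.39 without that library.

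Of 22 tested apolipoproteins and lipoprotein genes 4 rose and 3 fell, or 2 and 2 without axenic 7, and leaving out conventional 3 also left 2 that rose, while leaving out axenic 1 or axenic 3 left 1 that fell. The apolipoprotein B gene apobb.2 (chromosome 20, 53439665 to 53470253, plus strand) had the largest log2 fold change of the named genes that rose, 5.78 ± 0.89 (adjusted p = 0.000366, edgeR). It was at 4.93, 21.97, 21.0 and 86.3 CPM in axenic libraries, against 0 to 1.56 CPM (median 0.830) in conventional libraries, and its log2 fold change was 4.65 without axenic 7. The related apoba rose by 2.11 ± 0.32, with levels of 136, 263, 401 and 749 CPM in axenic and 59.7 to 110 CPM in conventional libraries. The liver is 1 of several sources of these products. In the list of plasma proteins of the liver, which itself holds apoba and other apolipoprotein genes, 12 of 48 tested were higher and 1 lower. Its summed level was 5246 to 12250 CPM in axenic and 3423 to 5737 CPM in conventional libraries. The number in that list depended on the libraries kept, with 1 higher (apoba) and 1 lower without axenic 7, 6 higher without conventional 3 and 7 without axenic 4. The transferrin gene tfa had a log2 fold change of 1.71 ± 0.33 (adjusted p = 0.00267, edgeR), or 1.1 with an adjusted p of 0.0678 without axenic 7. The gene hpx, for the haem carrier hemopexin, had one of 4.24 ± 0.84 (adjusted p = 0.00331, edgeR), or 2.77 with an adjusted p of 0.132 without axenic 7 and 5.15 without conventional 2. Among 53 liver list members with counts in the file, 0 were at 0 over the axenic libraries, and the part of liver tissue in these results was not tested. Of 59 genes of glucose handling 4 rose and 1 fell, with 2 that rose and 1 that fell without axenic 7 and 7 that rose without conventional 7. Among those that rose was pygma, for muscle glycogen phosphorylase, also counted in the skeletal muscle list. The glucokinase gene gck, which in the liver answers to feeding, rose by 3.11 ± 0.61, or 2.19 without axenic 4, with 1.49, 2.58, 10.7 and 2.90 CPM in axenic and 0.237 to 0.863 CPM in conventional libraries. The gene that fell was slc2a6, for a sugar transporter that macrophages of mammals induce, by 2.42 ± 0.51, or by 3.17 without axenic 7.

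**Figure D3:**
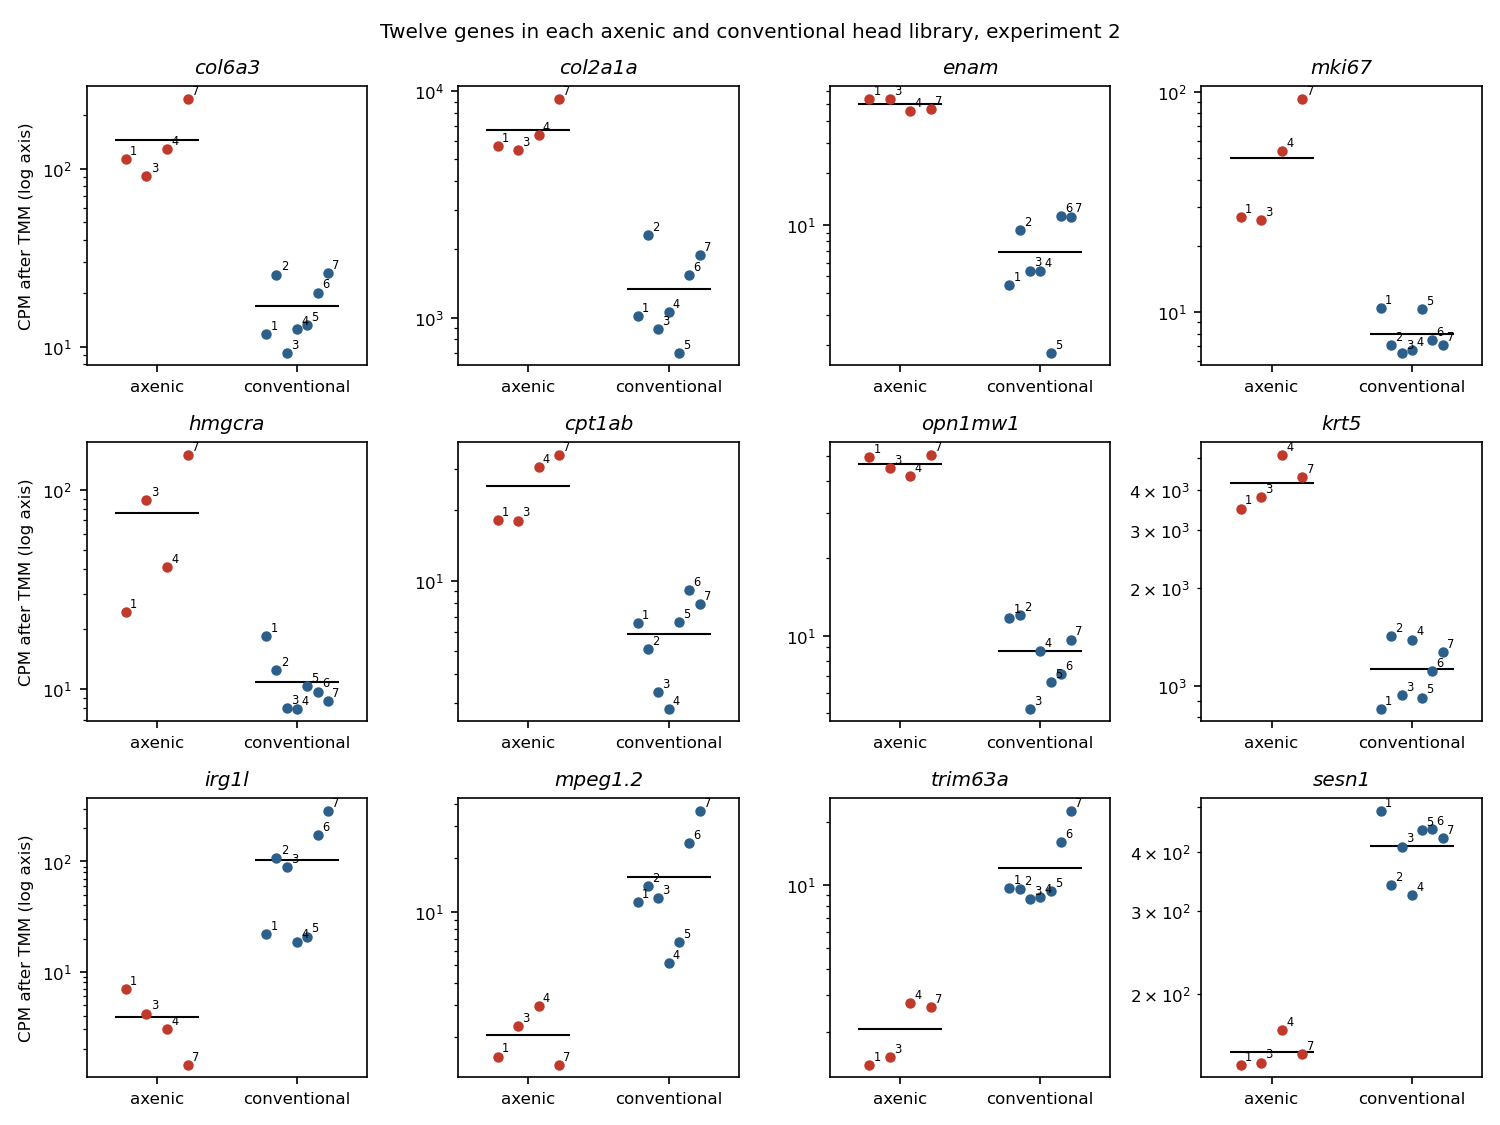
CPM after TMM scaling (vertical log axes) of 12 genes in each axenic (left) and conventional (right) library of experiment 2, with library numbers beside the points and group means as lines. The first 8 genes lie higher and the last 4 lower in every axenic library, and axenic 7 is the highest axenic library for col6a3, col2a1a, mki67, hmgcra, cpt1ab and opn1mw1.

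Some muscle structure genes were higher in axenic heads, and their number changed with the libraries kept. Of 84 tested genes of skeletal muscle 27 rose and 0 fell, with a median log2 fold change of 0.65, but the count was 5 without axenic 7, 14 without conventional 3, 16 without axenic 4 and 17 without conventional 4. Of the 84 members, 12 were higher in every axenic library than in any conventional one, beside 3.32% of all genes tested. The summed level was 34120 to 47660 CPM in axenic and 20560 to 46820 CPM in conventional libraries, which overlapped. The fast myosin heavy chain gene myhz2 was at 1080, 839, 1799 and 2132 CPM in axenic libraries, against 396 to 616 CPM (median 533) in conventional ones. It rose by 1.5 ± 0.27 (adjusted p = 0.00154, edgeR), although fast myosin genes of this cluster are close copies that can share reads. The giant spring protein gene ttn.2 was at 141, 137, 381 and 789 CPM in axenic and 45.9 to 190 CPM in conventional libraries. Its axenic 1 and 3 lay inside the conventional range, its log2 fold change was 1.82 ± 0.43 (adjusted p = 0.0119, edgeR), and without axenic 7 it was 1.04 with an adjusted p of 0.226. The calcium pump gene atp2a1 was among the 5 most abundant of the named genes that rose. It had a log2 fold change of 1.09 ± 0.31 (adjusted p = 0.0398, edgeR). It missed the threshold on leaving out any of 10 of the 11 libraries in turn, all but conventional 2. Its adjusted p was 0.124 without axenic 7.

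Some members of a list of fasting and muscle ubiquitin ligase genes were lower. The genes cpt1ab and angptl4, counted above with fatty acid oxidation, were higher. Of 33 tested genes of fasting and muscle ubiquitin ligases 0 rose and 11 fell, with a median log2 fold change of -0.46, and 6 fell without axenic 7, with a median of -0.63. In the summed level the groups were apart, 1409 to 1826 CPM in axenic and 2665 to 3758 CPM in conventional libraries. The gene trim63a (chromosome 6, 15651977 to 15653495, minus strand), for the ubiquitin ligase MuRF1 that marks myofibril proteins for breakdown, was at 1.39, 1.51, 2.75 and 2.62 CPM in axenic libraries, against 8.58 to 22.7 CPM (median 9.63) in conventional libraries. Conventional 6 and 7 were the highest, the groups did not overlap, and trim63a fell by 2.55 ± 0.31 (adjusted p = 4.71e-05, edgeR). The gene sesn1 (chromosome 20, 32152355 to 32231158, plus strand), for sestrin 1, which restrains the growth kinase mTORC1, was at 142, 143, 168 and 149 CPM in axenic libraries, against 325 to 490 CPM (median 429) in conventional libraries. It fell by 1.46 ± 0.19, with axenic libraries close together. The gene eif4ebp3l, for a repressor of cap-dependent translation, fell by 1.28 ± 0.24. The insulin-like growth factor binding protein genes igfbp1a and igfbp1b, which the liver makes in fasting, fell by 1.68 ± 0.31 and 2.09 ± 0.46. The autophagy kinase gene ulk2 fell by 1.14 ± 0.28, with an adjusted p of 0.0917 without axenic 7 (0.0162 with it, edgeR), and also missed the threshold without axenic 4.

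Some stress regulators fell too, in lists that share called genes. Both the fasting and the amino acid stress list count eif4ebp3l. Both the amino acid stress and the glucocorticoid list count ddit4. Of 33 tested genes of the amino acid stress response 7 fell and 2 rose, 4 fell and 0 rose without axenic 7, and 4 fell without axenic 4. The gene trib3, for a pseudokinase under the stress factor ATF4, was at 19.1, 16.4, 21.9 and 12.3 CPM in axenic libraries, against 26.9 to 53.1 CPM (median 42.6) in conventional libraries, and fell by 1.31 ± 0.20 (adjusted p = 0.000396, edgeR). The small stress protein gene nupr1b (chromosome 3, 15505275 to 15506159, plus strand) was at 0.647, 0.368, 0.537 and 0.437 CPM in axenic libraries, against 0.807 to 6.76 CPM (median 4.21) in conventional ones. It was the lowest of these genes in level and fell by 3.06 ± 0.52. Of 30 tested genes of the glucocorticoid response and stress axis 0 rose and 5 fell. That number was 2 without axenic 7, 3 without axenic 3 or without conventional 2, 3 or 6, and 8 without conventional 1. The gene tsc22d3, for the steroid-induced leucine zipper protein GILZ, fell by 1.34 ± 0.20, and ddit4, for an mTORC1 inhibitor induced by steroids and by stress, fell by 1.98 ± 0.34. The steroid target gene klf9 had a log2 fold change of -1.35 ± 0.34 in overlapping libraries (adjusted p = 0.0176, edgeR, and 0.0988 without axenic 7), and it also missed the threshold without axenic 1.

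Several regulators outside the lists were among the named genes with the smallest adjusted p. The gene arrdc2 (chromosome 11, 13524504 to 13533783, plus strand), for an arrestin-domain protein, was at 12.6, 14.1, 18.3 and 14.6 CPM in axenic libraries, against 37.1 to 74.5 CPM (median 59.0) in conventional libraries. The groups were far apart and arrdc2 fell by 1.98 ± 0.22 (adjusted p = 2.25e-05, edgeR). The gene mknk2b, for a kinase that phosphorylates the cap-binding protein eIF4E, fell by 1.47 ± 0.20, and gadd45ba, for a growth arrest and DNA damage protein, by 1.67 ± 0.24. The most abundant named gene that fell was btg1, an antiproliferative gene, at 547 to 1329 CPM in axenic and 1513 to 3227 CPM in conventional libraries. Its log2 fold change was -1.25 ± 0.31, with an adjusted p of 0.0992 without axenic 7 (0.0179 with it, edgeR).

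Some enzymes of innate defence were lower in axenic heads. All 4 called members of the 13 tested itaconate and nitric oxide enzymes fell and 0 rose, with a median log2 fold change of -0.98, and 3 fell without axenic 7. The gene irg1l (chromosome 14, 11427052 to 11430611, minus strand), a homologue of the itaconate synthase gene, was at 6.92, 4.17, 3.02 and 1.43 CPM in axenic libraries, against 18.6 to 289 CPM (median 89.6) in conventional libraries. The conventional libraries split widely, with 1, 4 and 5 at the low end, all still above the axenic ones, and irg1l fell by 4.73 ± 0.78 (adjusted p = 0.000729, edgeR). The inducible nitric oxide synthase gene nos2a had 21 counts over the 4 axenic and 1486 over the 7 conventional libraries, 48.3-fold fewer relative to library size, with a 95% exact interval of 31.5 to 78.2 that covers counting error alone. Conventional 7 alone reached 71.9 CPM, while the conventional median was 2.03 CPM and the axenic libraries were at 0.199 to 0.368 CPM, so the size of the fold rests on that library although the groups did not overlap. The log2 fold change of nos2a was -5.87 ± 1.18 (adjusted p = 0.00382, edgeR), and -4.46 without conventional 7, but voom in limma gave it an adjusted p of 0.0921. The superoxide-producing oxidase gene nox1 fell by 2.4 ± 0.40, and the gene of its organiser noxo1a had a log2 fold change of -1.80 ± 0.50 in overlapping libraries (adjusted p = 0.0319, edgeR, 0.141 without axenic 7, and over the threshold without axenic 1 or 3 or conventional 6 or 7). The macrophage itaconate synthase gene acod1, named after its values were seen, had 37 axenic and 103 conventional counts, 1.9-fold fewer on the same scale (95% exact interval 1.29 to 2.85), and was not called (adjusted p = 0.39, edgeR).

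Some macrophage and microglia genes fell as well. Of 33 tested members 0 rose and 7 fell, with a median of -0.715, and 4 fell without axenic 7. The summed level was 368 to 607.4 CPM in axenic and 526.9 to 1293 CPM in conventional libraries, which overlapped, and 1 of 36 members in the table, the complement gene c1qa, was at 0 in all axenic libraries. The pore-forming macrophage gene mpeg1.2 was at 1.54, 2.29, 2.95 and 1.39 CPM in axenic libraries, against 5.18 to 36.6 CPM (median 11.9) in conventional libraries, and fell by 2.94 ± 0.53 (adjusted p = 0.00155, edgeR). Conventional 6 and 7 were the highest for this gene too. The scavenger receptor gene marco fell by 2.39 ± 0.40, and the granulin gene grna had a log2 fold change of -1.73 ± 0.38 with an adjusted p of 0.0530 without axenic 7 (0.00745 with it, edgeR). Of 20 tested neutrophil genes 0 rose and 1 fell, the peroxidase gene mpx, with 28.8, 29.0, 36.5 and 46.8 CPM in axenic libraries against 57.4 to 227 CPM (median 113) in conventional ones. Its log2 fold change was -1.60 ± 0.41 (adjusted p = 0.0204, edgeR), and leaving out any axenic library took it over the threshold, to 0.0524 without axenic 7, which left 0 called neutrophil genes. None of 20 tested T lymphocyte and thymus genes was called (0), and neither was any of 24 genes of microbial recognition (0).

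Some regulators outside those lists, and a few interferon response genes, fell. The gene urgcp (chromosome 19, 7682109 to 7690976, minus strand) was at 1.44, 1.06, 2.08 and 2.39 CPM in axenic libraries, against 9.12 to 39.6 CPM (median 14.98) in conventional libraries, and fell by 3.49 ± 0.40 (adjusted p = 2.25e-05, edgeR). The gene nfkbiz, for an inducible co-regulator of NF-kappaB, was at 5.08, 4.99, 5.37 and 4.49 CPM in axenic libraries, against 10.1 to 64.5 CPM (median 30.9) in conventional ones. Axenic values hardly varied and conventional values varied by several-fold, and nfkbiz fell by 2.79 ± 0.45. The epithelial transcription factor gene elf3, also counted in the keratinocyte list below, fell by 2.52 ± 0.49. The gene oxgr1a.1, for a receptor of 2-oxoglutarate, had 0 counts in the axenic libraries and 214 in the conventional libraries, at least 48.7-fold lower relative to library size with a floor of 3 counts over the group. Of 24 tested interferon response genes 0 rose and 3 fell (isg15, irf1b and mxf, the last of them named after its values were seen). That count was 1 without axenic 3, 0 without axenic 7 and 5 without conventional 1. The ubiquitin-like antiviral gene isg15 had 12 axenic and 259 conventional counts, 14.7-fold fewer relative to library size (95% exact interval 8.29 to 28.9), in overlapping libraries. Its adjusted p was 0.0329 (edgeR), and it missed the threshold without axenic 3, 4 or 7 (0.137) or conventional 2 or 3. Its log2 fold change of -3.77 became -2.71 without conventional 2 and -4.61 without axenic 1. Of 31 genes of acute inflammation and cytokines 0 rose and 1 fell, the cytokine feedback inhibitor gene socs3b, by 1.02 ± 0.24 (adjusted p = 0.012, edgeR, and 0.0610 without axenic 7, where irak3 was the 1 called member, named after its values were seen).

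**Figure D4:**
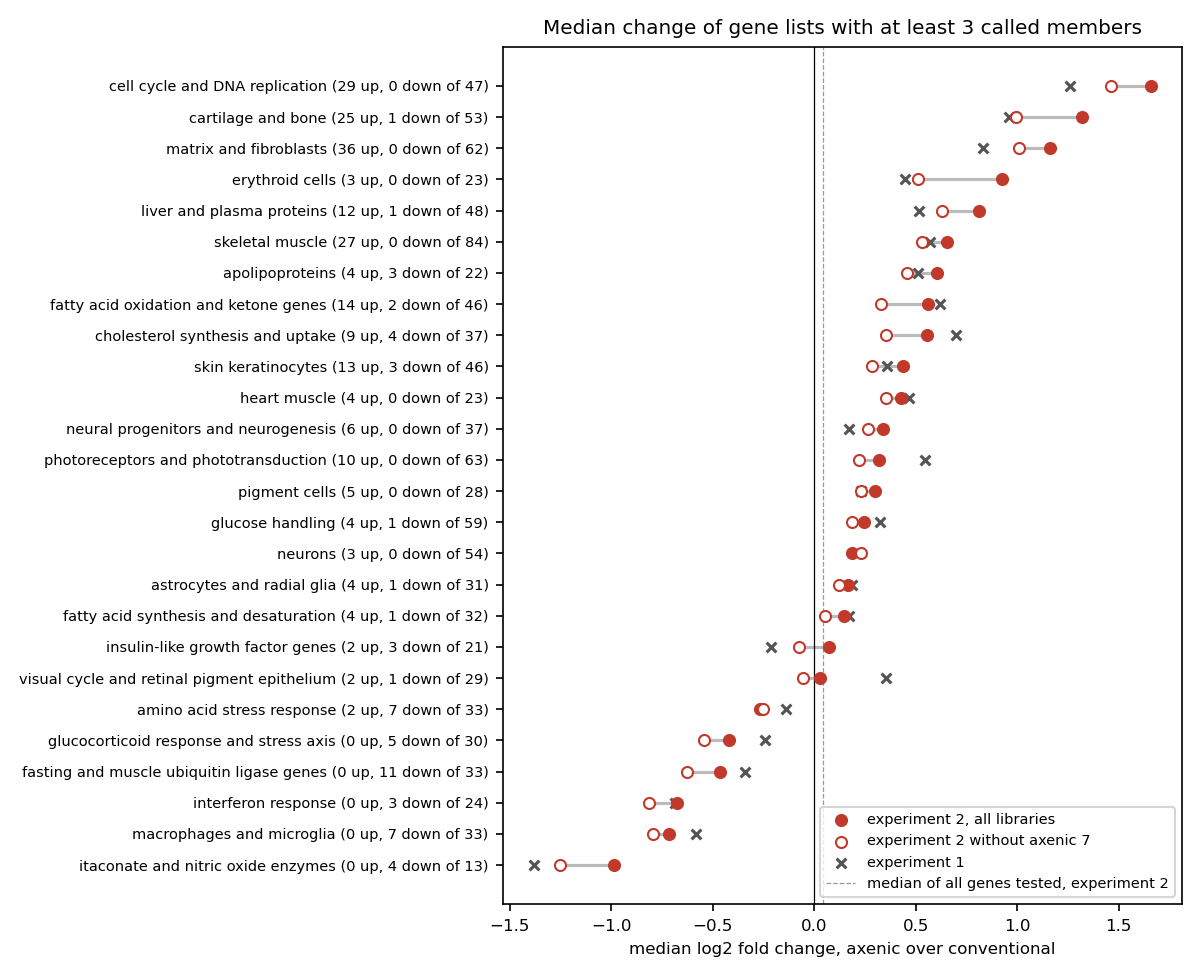
Median log2 fold change, axenic over conventional (horizontal axis), of the gene lists with at least 3 called members, for experiment 2 with all libraries (filled), without axenic 7 (open) and for experiment 1 (crosses), with the median of all genes tested in experiment 2 as a dashed line at 0.04. The cell cycle list lies highest at 1.66 and the itaconate and nitric oxide list lowest at -0.98, and the list medians at or beyond 0.3 in size keep their sign without axenic 7.

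In the eye, some photoreceptor genes were higher. Of 63 tested genes of photoreceptors and phototransduction 10 rose and 0 fell, with a median of 0.32, and the count was 5 without axenic 7 and 6 without axenic 1 or without conventional 3. The green opsin gene opn1mw1 (chromosome 6, 41181869 to 41183824, plus strand) was at 49.6, 44.7, 41.6 and 50.5 CPM in axenic libraries, against 5.2 to 12.1 CPM (median 8.69) in conventional libraries. The axenic values lay in a narrow band far above the conventional range, and the log2 fold change was 2.42 ± 0.31 (adjusted p = 7.63e-05, edgeR). The red opsin gene opn1lw2 was at 131, 62.6, 67.9 and 108 CPM in axenic libraries, against 9.73 to 35.3 CPM (median 17.7) in conventional ones, and rose by 2.18 ± 0.38. Both belong to tandem arrays of close copies, so reads may be shared, and the neighbour opn1mw2 had a log2 fold change of 1.72 ± 0.40 in overlapping libraries (adjusted p = 0.011, edgeR), or 0.99 with an adjusted p of 0.219 without axenic 7. The rod transducin subunit gene gngt1 rose by 2.11 ± 0.44. The abundant ultraviolet opsin gene opn1sw1, at 2422 to 4583 CPM in axenic and 1109 to 3650 CPM in conventional libraries, had a log2 fold change of 1.07 ± 0.30 (adjusted p = 0.0349, edgeR). It missed the threshold on leaving out axenic 1, 4 or 7 (0.149) or conventional 2, 3, 4, 5, 6 or 7. The outer segment retinol dehydrogenase gene rdh8a went the other way and fell by 0.89 ± 0.20. None of 52 tested lens crystallin genes was called (0), with a median of -0.56 and sums of 38440 to 72180 CPM in axenic and 36020 to 134800 CPM in conventional libraries.

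Some skin genes were higher and a few were lower. Of 46 tested keratinocyte genes 13 rose and 3 fell, with 4 and 2 without axenic 7 and 8 that rose without axenic 4. The keratin gene krt5 (chromosome 23, 10173196 to 10177459, minus strand) was at 3502, 3799, 5123 and 4381 CPM in axenic libraries, against 851 to 1424 CPM (median 1109) in conventional libraries. No library overlapped, and the log2 fold change was 1.90 ± 0.28 (adjusted p = 0.000285, edgeR). The basal keratinocyte gene krtt1c19e was at 857, 788, 954 and 747 CPM in axenic libraries, against 76.3 to 320 CPM (median 121) in conventional ones, and rose by 2.58 ± 0.47. Type I keratin gene krt15 rose by 1.4 ± 0.23, and col7a1, for the anchoring fibrils beneath the epidermis, by 3.03 ± 0.58. The surface keratin gene krt4 was the most abundant named gene that rose. It was at 4278, 3984, 9890 and 10538 CPM in axenic and 2362 to 3885 CPM in conventional libraries. Axenic 4 and 7 were its high libraries, and its log2 fold change was 1.25 ± 0.30, with an adjusted p of 0.146 without axenic 7 (0.0145 with it, edgeR), and it also missed the threshold without axenic 4. The keratin gene krt96 was among those that fell, by 1.87 ± 0.28, with 14.6 to 19.2 CPM in axenic and 40.7 to 82.7 CPM in conventional libraries. Keratins have close copies, and reads may be shared among them. Of 28 pigment cell genes 5 rose and 0 fell, or 1 without axenic 7, and pnp4a, for a purine enzyme of iridophores, rose by 1.94 ± 0.33.

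Few genes of neurons and their signalling were called, near the 3.99% higher and 2.15% lower over all genes tested. Of 54 tested neuron markers 3 rose and 0 fell, with a median of 0.185 and 2 that rose without axenic 7, and 0 of 46 synaptic vesicle genes and 0 of 40 GABA and glycine genes were called. Of 46 genes of glutamate signalling 2 rose and 0 fell, of 56 of monoamine signalling 2 rose and 0 fell, and of 42 feeding and arousal neuropeptides 0 rose and 1 fell. Without axenic 7 there was 1 that rose among the glutamate genes and 0 were called in the monoamine and neuropeptide lists. Tubulin and progenitor genes were among those that rose. The gene tubb5 (chromosome 16, 10318893 to 10327621, plus strand), for a beta-tubulin, was at 154, 124, 95.2 and 116 CPM in axenic libraries, against 20.6 to 38.4 CPM (median 24.7) in conventional libraries. It was apart in every library, with axenic 7 in the middle, and rose by 2.21 ± 0.25 (adjusted p = 2.25e-05, edgeR). The tubulin gene tuba1a, of growing axons, rose by 1.03 ± 0.26 (adjusted p = 0.0169, edgeR) but missed the threshold without axenic 4 (0.0632). Of 37 genes of neural progenitors and neurogenesis 6 rose and 0 fell, beside 3.99% higher over all genes tested, and 2 rose without axenic 7. In 9 of the 37 every axenic library was above every conventional one, beside 3.32% of all genes tested. The list summed to 1495 to 1653 CPM in axenic and 947.3 to 1428 CPM in conventional libraries, without overlap. It shares the called gene tubb5 with the neuron list. The gap between the sums was smaller than the tubb5 level of every axenic library, so the separation may rest on tubb5. Among the genes that rose, dlb, for a Delta ligand of Notch, had a log2 fold change of 1.92 ± 0.33. The progenitor factor gene sox11b had a log2 fold change of 0.98 ± 0.21 (adjusted p = 0.00688, edgeR, and 0.0684 without axenic 7), and stmn1a, for the microtubule regulator stathmin, one of 2.42 ± 0.58 (adjusted p = 0.0138, edgeR, 0.0604 without axenic 7, and over the threshold without axenic 3).

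Glial genes were divided. Of 31 tested genes of astrocytes and radial glia 4 rose and 1 fell, or 3 and 1 without axenic 7. The radial glial fatty acid binding protein gene fabp7a rose by 1.42 ± 0.27 and the glutamate transporter gene slc1a3b by 0.76 ± 0.16. The intermediate filament gene vim, also made by fibroblasts and many other cells, was at 217, 191, 234 and 133 CPM in axenic libraries, against 278 to 651 CPM (median 517) in conventional ones, and fell by 1.37 ± 0.29 (adjusted p = 0.0057, edgeR). In the myelin and oligodendrocyte list of 29 tested genes 2 rose (cspg4 and pdgfra) and 0 fell, and 1 rose without axenic 7 (cspg4). The matrix and fibroblast list also holds pdgfra. The precursor cell proteoglycan gene cspg4, which pericytes and cartilage also make, was at 22.6, 19.1, 25.98 and 61.6 CPM in axenic libraries, against 4.11 to 10.5 CPM (median 7.42) in conventional libraries, and rose by 2.16 ± 0.28.

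Several further lists held few or no called genes in experiment 2. Of 73 cytoplasmic ribosomal protein genes 0 were called, with a median of -0.22 and of -0.01 without axenic 7. Of 59 nuclear genes of oxidative phosphorylation 1 rose and 0 fell, and of 13 mitochondrially encoded genes 0 were called. Of 40 immediate early genes 0 rose and 2 fell, and of 46 circadian clock genes 1 rose and 1 fell. Without axenic 7, 0 were called in the oxidative phosphorylation and immediate early lists, and 0 rose and 1 fell in the clock list. The exocrine pancreas list (19 tested), the intestine list (35 tested) and the pituitary hormone list (6 tested) held 0 called genes. The erythroid list held more: of 23 tested genes 3 rose and 0 fell, beside 3.99% higher over all genes tested, with a median of 0.92. Without axenic 7, 0 rose and the median was 0.51. Its sums were 333.8 to 556.4 CPM in axenic and 147.3 to 360.4 CPM in conventional libraries, which overlapped.

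Experiment 1 made the same comparison with other larvae, 6 axenic and 6 conventional libraries, and with ribosomal RNA removed in place of polyA selection, so no library was shared. There 3077 of 19727 genes were called (15.6%), 1753 higher (8.89%) and 1324 lower (6.71%) in axenic heads. A part of the library names of experiment 1, whose meaning the labels do not give, was the same in all axenic libraries. It took another value in all conventional libraries, so a difference in handling that it marks cannot be told apart from the groups. Of the 1237 genes called in experiment 2, 1182 were tested in experiment 1, and 1134 of these (95.9%) had the same sign, beside 65.5% of the 18768 genes tested in both. A call in the same direction was made for 482 of the higher and 220 of the lower genes, together 59.4% of the experiment 2 calls tested in both and 24.1% of the 2915 experiment 1 calls tested in both, and 0 were called in the opposite direction. For apobb.2 the fold changes were 5.78 in experiment 2 and 4.76 in experiment 1, for enam 2.85 and 3.04, for krt5 1.90 and 1.59, for cpt1ab 2.09 and 1.91, and for irg1l -4.73 and -3.99, all on the log2 scale. Members of the cell cycle list rose in both, 29 of 47 in experiment 2 and 29 of 41 in experiment 1, with 0 that fell in either. For col6a3 the log2 fold changes were 3.11 in experiment 2 and 1.77 in experiment 1, and that difference was not called. Other lists had unlike counts. Nuclear oxidative phosphorylation had 1 of 59 higher in experiment 2 and 36 of 59 in experiment 1, with 0 lower in either. Immediate early genes had 2 of 40 lower in experiment 2 and 21 of 40 in experiment 1, with 0 higher in either. In these 2 lists 0 members were called as different between the experiments.

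**Figure D5:**
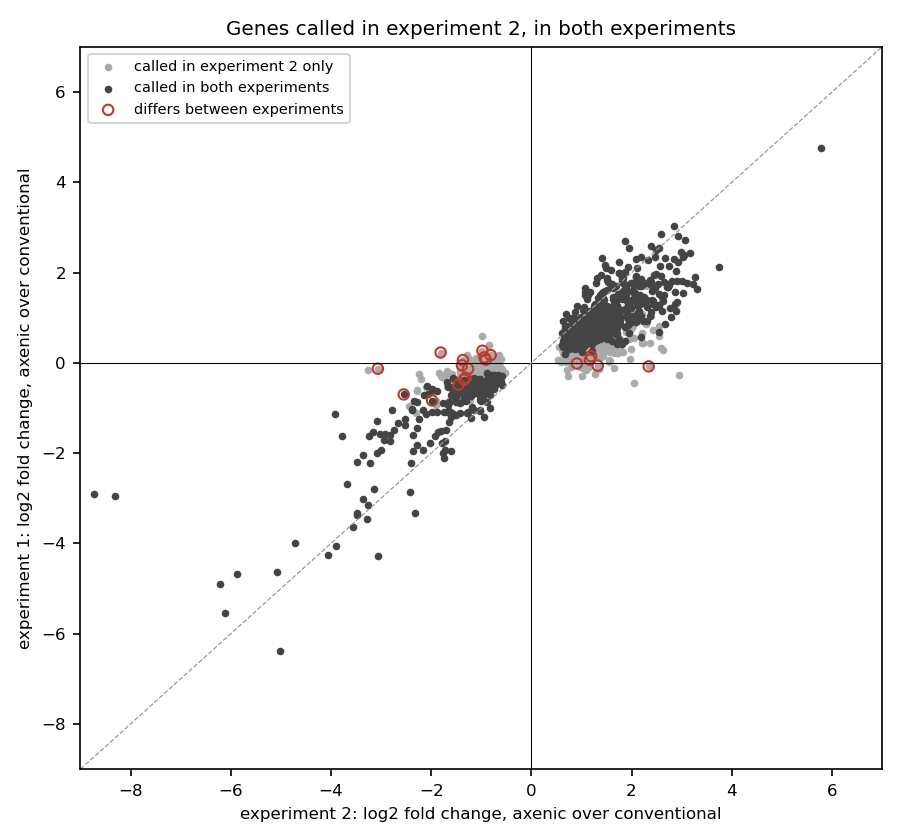
Log2 fold change, axenic over conventional, in experiment 2 (horizontal axis) and experiment 1 (vertical axis) of the genes called in experiment 2 and tested in both, with genes called in both in dark grey, genes that differ between experiments ringed, and equality as a dashed line. Of 1182 genes 1134 lie in the quadrants of equal sign.

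The difference between the experiments was tested directly in an edgeR fit over all 36 libraries. It was called for 21 of 21208 genes (0.099%), 7 with a higher (0.033%) and 14 with a lower (0.066%) value in experiment 2, 19 of them among the experiment 2 calls, and left-out libraries moved that number between 5 (without axenic 3) and 77 (without conventional 5), with 11 without axenic 1, 9 without axenic 7 and 71 without conventional 1. DESeq2 called 164. The gene trim63a had -2.55 ± 0.31 in experiment 2 and -0.70 in experiment 1, a difference of -1.92 ± 0.38 (adjusted p = 0.031, edgeR). Sestrin gene sesn1 differed by -1.03 ± 0.20, arrdc2 by -1.21 ± 0.25 and tsc22d3 by -1.03 ± 0.20, each having fallen in experiment 1 too, but less. The gene nupr1b differed the most of those named, by -3.01 ± 0.52 (adjusted p = 0.0117, edgeR), since it fell by 3.06 in experiment 2 and had -0.13 in experiment 1. The gene ctdspla, for a small phosphatase, had -1.26 ± 0.19 in experiment 2 and -0.13 in experiment 1, and vim had -1.37 and 0.06. In the other direction, ago3b, for an Argonaute protein, had 2.34 ± 0.46 in experiment 2 and -0.08 in experiment 1, and cad, for the enzyme that starts pyrimidine synthesis, had 0.91 ± 0.17 and -0.01. The experiments also differed in RNA extraction site and library kit, which cannot be told apart from this difference.

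The re-colonized libraries of experiment 2 give a second point of comparison, which shares the axenic libraries in one direction and the conventional libraries in the other. Against re-colonized heads 785 of 20169 genes were called in axenic heads (3.89%), 656 higher (3.25%) and 129 lower (0.64%), and in re-colonized against conventional heads edgeR called 0 genes (0%), with 2751 at an unadjusted p below 0.05, 119 by DESeq2 and 118 by voom. For col6a3 the log2 fold change was 2.28 in axenic over re-colonized heads and 0.83 in re-colonized over conventional heads. For cpt1ab these were 2.24 and -0.15, for krt5 1.86 and 0.03, for sesn1 -1.33 and -0.13, and for mknk2b -1.37 and -0.10. The gene irg1l had -3.31 and -1.41, mpeg1.2 -1.83 and -1.11, krt96 -0.88 and -0.99 and opn1mw1 1.55 and 0.87. No value in re-colonized over conventional heads was called, and the 2 values of a gene were not tested against each other. For vim the values were -0.60 and -0.77, and for tsc22d3 -0.67 and -0.67.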

How the data were processed

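RNA was measured in 36 pools of larval zebrafish heads, of which 11 are compared here. In experiment 2, RNA was polyA selected, per the labels' protocols, and amplified for 13 cycles, while that of experiment 1 was depleted of ribosomal RNA. Per the submitters' processing notes, bcl2fastq, Partek 8.0.19.0428 and STAR 2.5.3a were used with the GRCz11 build. Neither the annotation nor the strand setting of the counting is given in the sources used here, so overlapping genes and close copies may share reads. The authors' deposited values are estimated counts per gene, not normalized, of 25077 genes in experiment 2, and 17.3% of them lay more than 0.01 from a whole number. They were rounded, and the test planned for whole counts was kept. No column lacked a sample (0).

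The quasi-likelihood test of edgeR 4.0.16 (R 4.3.3) was fitted to all 18 libraries of experiment 2 with group means and TMM factors, on the 20169 genes that passed the tool's filter for low counts. Calls needed an adjusted p under 0.05 after Benjamini-Hochberg correction, in either direction, and the SE is the absolute log2 fold change over the square root of F. The biological coefficient of variation was 35.5%. Experiment 1 was fitted likewise, and differences between experiments as an interaction over 36 libraries. Sums of counts have 95% exact intervals, or a floor of 3 counts over the group. DESeq2 1.42.0, voom in limma 3.58.1, other scaling and filters, the 2 groups alone, a replicate block and left-out libraries were alternatives, and the fit was tested on simulated data. No libraries were duplicates.

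The comparison and the 50 gene lists, with 1846 of 2048 symbols in the count table, were chosen with earlier results of these data known. Genes named by the rule carry a regular symbol and average 1 CPM or more, and a few others are said to be named after their values were seen. The rule takes the 15 per direction with the largest fold change, the 10 with the smallest adjusted p, the 5 most abundant calls, up to 4 called members per list, the 8 per direction called in both experiments and 5 that differ between them, with later ranks left out for length.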

Additional observations from a re-analysis of the deposited data

Results flagged for a closer look

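Within groups, 20 of 196 sets of library values held a library far from the others by Dixon's test, and 4 of these were axenic 7. The threshold of that test flags about 1 in 20 sets of independent, normally distributed values. It was applied to CPM without a log, for genes chosen by their results. The number of flags can therefore not be set against that rate. Axenic 7 was high for col12a1b (110 CPM, against 48.0 to 54.0 in the other axenic libraries), mcm3 (100.5 CPM, against 52.7 to 56.2), cspg4 (61.6 CPM, against 19.1 to 25.98) and slc2a6 (0.755 CPM, against 0.199 to 0.268). Axenic 4 was low for col10a1a (340.0 CPM) and high for gck (10.7 CPM), and axenic 3 was high for nos2a (0.368 CPM).

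Among conventional libraries, conventional 2 was high for col10a1a (133 CPM), hpx (0.885 CPM), atp2a1 (4030.2 CPM), isg15 (8.52 CPM), mpx (227 CPM) and krtt1c19e (319.7 CPM). Conventional 1 was high for hapln1a (6.34 CPM), hmgcra (18.4 CPM), opn1sw1 (3650 CPM) and ago3b (0.979 CPM). Conventional 7 was high for cthrc1b (1.15 CPM), angptl4 (18.8 CPM) and nos2a (71.9 CPM, against 0.712 to 15.9 CPM in the other conventional libraries).

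For 9 named genes the log2 fold change of axenic over conventional heads differed between experiment 2 and experiment 1 by the interaction test in edgeR. The difference, experiment 2 minus experiment 1, was -1.92 for trim63a, -1.03 for sesn1, -1.21 for arrdc2, -1.03 for tsc22d3, -3.01 for nupr1b, -1.47 for vim, -1.19 for ctdspla, 0.86 for cad and 2.36 for ago3b.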

How the results depend on the processing

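Of the 98 named genes, 71 kept their direction and their call under every alternative that gave a value (20, or 19 for oxgr1a.1, which the 1 CPM filter removed) and 0 reversed, and 76 were called without axenic 7. Counts moved more. Genes called in axenic against conventional heads numbered 1237, with 1903 by DESeq2 (930 lower) and 2068 by voom (877 lower). With libraries left out in turn they ranged from 391 to 1521, those higher from 223 to 812 and those lower from 168 to 715. Lower genes were 246 without axenic 3 and 715 without conventional 1, and higher genes were 531 without conventional 4. Without conventional 3 there were 821, 494 of them higher. Leaving out axenic 7 and conventional 1 together, chosen after seeing the data, gave 429, of which 226 were higher and 203 lower. The cause of these moves was not tested. Genes that differ between experiments numbered 21, with 164 by DESeq2 and 5 to 77 with libraries left out. Re-colonized against conventional heads gave 0 by edgeR, 119 by DESeq2 and 118 by voom.

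The replicate block gave 1705 calls, 1060 higher and 645 lower. Libraries that share a number correlated at -0.125, 0.206, 0.0497 and 0.226 for numbers 1, 3, 4 and 7 in their deviations from the group means. Of the 4 axenic libraries 2 matched best with their own number. These values do not settle whether the numbers mark pairs, and the planned fit used no block. Scaling by DESeq2 size factors gave 1191 calls, no filter 1132, a filter at 1 CPM 1247 and the 2 groups alone 927. Leaving out re-colonized 1 and 7, also chosen later, gave 1363. Re-colonized 1 and 7 had scaling factors of 1.549 and 1.376, above the 1.208 of axenic 7. All 18 libraries of experiment 2 share the estimate of the spread. Genes with few counts, such as acod1 with 37 counts over the axenic libraries, carry a larger counting error. Why acod1 was not called was not tested.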

Other observations

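Other lists of the same comparison held called genes too, to be read against 3.99% higher and 2.15% lower over all genes tested. Of 21 tested insulin-like growth factor genes 2 rose and 3 fell in axenic heads, the 3 including igfbp1a and igfbp1b, and without axenic 7 the counts were 0 and 3. Of these genes igfbp1a is also counted in the fasting list. The insulin-like growth factor list summed to 365.1 to 494.2 CPM in axenic and 526.8 to 1014 CPM in conventional libraries, without overlap. Of 22 complement genes 1 rose and 0 fell, and of 14 antigen presentation genes 0 rose and 1 fell (ctss2.1, a cathepsin gene named after its values were seen), and without axenic 7 these were 0 complement genes and 1 antigen presentation gene. Of 18 thyroid genes 0 rose and 2 fell, pax8 and klf9, the latter also counted in the glucocorticoid list. Of 17 targets of the aryl hydrocarbon receptor 0 rose and 2 fell (ahrra and foxq1a, foxq1a being named after its values were seen). Without axenic 7 there was 1 that fell in the thyroid list (pax8) and 0 in the receptor list. Of 23 heart muscle genes 4 rose and 0 fell, with 1 that rose without axenic 7 and 2 without conventional 3. Of 29 genes of the visual cycle and retinal pigment epithelium 2 rose and 1 fell, and of 27 ionocyte and gill genes 1 rose and 0 fell. Without axenic 7 the visual cycle list had 1 that rose and 1 that fell, and the ionocyte list 0.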
